A study of Mus musculus with 9 samples.

Results

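The miR-23, miR-27 and miR-24 precursors of the mouse lie in 2 paralogous clusters, and 6 of the 661 miRNA precursors with reads in these libraries belong to them. Cluster a on chromosome 8 holds mmu-mir-23a, mmu-mir-27a and mmu-mir-24-2. Cluster b on chromosome 13 holds mmu-mir-23b, mmu-mir-27b and mmu-mir-24-1. The members were taken by name, not by any measured value, and all 6 passed the filter on low counts that left 520 of 996 small RNA features for testing. Small RNA was sequenced by PANDORA-seq, in which AlkB and T4 polynucleotide kinase act on the RNA so that modified fragments enter the library beside miRNAs. The 9 libraries came from atrial appendages of C57BL/6 mice in 3 groups of 3: mice 5 months old without curcumin (young), mice 18 months old without curcumin (old), and mice 18 months old that had received curcumin at 100 mg/kg daily between 12 and 18 months of age (curcumin). The labels do not say whether each library came from 1 mouse or from pooled tissue, so p-values measure the spread between these libraries.

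Members of each cluster are cut from 1 primary transcript, so the 3 hairpins of a cluster are made together, while Drosha, Dicer and decay of the mature strands can set their levels apart. The clusters are known for their place in blood vessels and in the heart. miR-27 acts on brakes of vessel sprouting such as Sprouty2, miR-23a has been tied to hypertrophic growth of cardiomyocytes downstream of NFAT, and miR-24 represses junctophilin-2, which holds together the membrane contacts that couple excitation to contraction. Fewer cells of a type and less RNA per cell cannot be told apart in bulk tissue such as this.

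The mature sequences show what separates the 3 families. RefSeq sequences on build GRCm38.p6 are given here from the 5′ to the 3′ end, with the seed, bases 2 to 8, in capitals, because the seed decides most target pairing.
mmu-miR-23a-3p: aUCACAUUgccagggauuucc
mmu-miR-27a-3p: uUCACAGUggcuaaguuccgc
mmu-miR-27b-3p: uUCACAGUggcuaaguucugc
mmu-miR-24-3p: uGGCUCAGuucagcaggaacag
The 3p strands of miR-27a and miR-27b share the seed UCACAGU, and they differ by 1 base of 21, C19U, where positions are counted from the 5′ end of miR-27a-3p. Both miR-24 hairpins give the same 3p strand. mmu-miR-23b-3p is named only. In the RefSeq table no miRNA outside the clusters carried the seed of miR-23a-3p or of miR-27, and of the 4 that share the seed of miR-24-3p, the files listed 2, with 6.1 and 1 reads over all 9 libraries.

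The hairpins show how far reads of the 2 clusters can be told apart. Stretches of at least 15 bases that a hairpin shares with its paralogue are in capitals.
mmu-mir-23a: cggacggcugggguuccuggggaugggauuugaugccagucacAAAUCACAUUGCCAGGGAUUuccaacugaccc
mmu-mir-23b: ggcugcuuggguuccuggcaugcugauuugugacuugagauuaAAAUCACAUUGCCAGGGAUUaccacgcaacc
mmu-mir-27a: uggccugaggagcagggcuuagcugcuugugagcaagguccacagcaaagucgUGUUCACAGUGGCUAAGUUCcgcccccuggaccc
mmu-mir-27b: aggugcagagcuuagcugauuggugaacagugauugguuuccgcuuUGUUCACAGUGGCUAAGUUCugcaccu
mmu-mir-24-2: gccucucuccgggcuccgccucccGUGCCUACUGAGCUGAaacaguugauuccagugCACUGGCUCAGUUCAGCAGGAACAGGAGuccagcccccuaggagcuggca
mmu-mir-24-1: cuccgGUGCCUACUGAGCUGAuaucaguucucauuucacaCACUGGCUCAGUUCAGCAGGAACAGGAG
The miR-23 hairpins share 20 bases and the miR-27 hairpins also share 20, which end before the last bases of the mature 3p strand. The miR-24 hairpins share 28 bases that span the whole of miR-24-3p, and 16 further bases in the 5p strand. A read that lies wholly in a shared stretch cannot be assigned to 1 locus. Deposited values of 1 locus were fractions in 3 of 9 libraries for miR-23, 5 for miR-27 and 6 for miR-24. The difference between the 2 loci of a pair was nevertheless a whole number of reads in 9 of 9 libraries for all 3 pairs (tolerance 1e-06 reads), as it is when a shared read adds the same part to both. The way shared reads were divided is not given in the sources used here; if they were split evenly, a locus value holds reads of its paralogue, and the sum of a pair does not depend on the division.

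Cluster a spans 404 bp, chr8:84208518-84208921 on the plus strand (mm10, which is the GRCm38 assembly). GENCODE has no host coding gene there. The last 2 bases of mmu-mir-24-2 overlap the start of the lincRNA Gm26532, and Mir3074-2 is annotated on the other strand of the same hairpin. Cluster b spans 792 bp, chr13:63300484-63301275 on the plus strand, within the coding gene 2010111I01Rik of the same strand and within Fancc on the other. mmu-mir-23b is intronic in both, while mmu-mir-27b and mmu-mir-24-1 overlap an exon of 2010111I01Rik and an intron of Fancc. Mir3074-1 lies opposite mmu-mir-24-1. The antisense loci mmu-mir-3074-1 and mmu-mir-3074-2 had 1 read each in old replicate 1 and 0 in the other libraries, where 3 counts would be at most 0.233 reads per 1000000 clean reads (clean RPM), clean reads being those left after trimming.

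**Figure D1:**
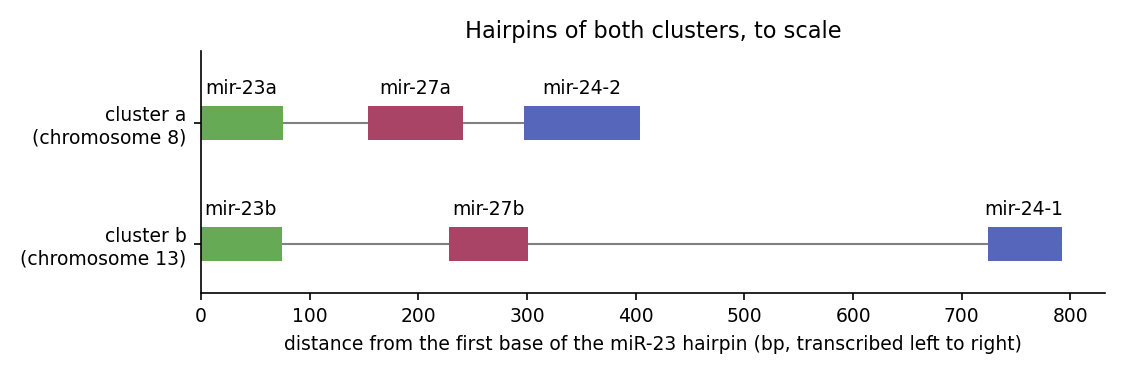
Hairpins of cluster a (top) and cluster b (bottom) drawn to scale against the distance in bp from the first base of the miR-23 hairpin. Both clusters keep the order miR-23, miR-27, miR-24, and cluster b spans 792 bp against 404 bp because of the 423 bp between mmu-mir-27b and mmu-mir-24-1.

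Libraries held 12899427 to 19707803 clean reads, of which 1.23% to 4.66% were miRNA. This share varied within groups: 4.66%, 1.34% and 1.88% in young replicates 1 to 3, 3.32%, 1.23% and 2.37% in old, and 3.21%, 4.22% and 3.53% in curcumin. The 3 libraries numbered 1 matched the genome at 72.2% to 73.7%, the other 6 at 65.0% to 68.3%. They stood apart in this in every group, and results are given below with and without them. Markers of striated muscle summed to 306853 to 430735 reads per 1000000 miRNA reads (miRNA RPM) and mmu-mir-126a of endothelial cells stood at 214741 to 281663. Of the 7 muscle markers, mmu-mir-208b reached at most 2.18 and mmu-mir-499 at most 23.5 in miRNA RPM, both with 0 reads in at least 1 library. Markers of liver and neurons were low, with sums of at most 190.3 and 121.5.

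Each cluster was measured by every member in every library, and together the 6 precursors took 1.63% to 1.99% of miRNA reads. The 95% Wilson interval of that share reached at most 0.059 percentage points to either side. Such intervals and floors cover counting error alone, because PCR copies of 1 molecule are separate reads. Cluster b had more reads than cluster a in 9 of 9 libraries. A small RNA is read as 1 whole molecule, so levels are compared between precursors without division by length.

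Within the clusters mmu-mir-27b was the most abundant member and mmu-mir-24-2 the second, in 9 of 9 libraries each. By mean miRNA RPM, mmu-mir-27b stood at 6764 (rank 25 of 661 precursors), mmu-mir-24-2 at 4465 (rank 34), mmu-mir-24-1 at 2638 (rank 42), mmu-mir-23a at 2256 (rank 46), mmu-mir-23b at 1273 (rank 60) and mmu-mir-27a at 937.5 (rank 66). The ranges of mmu-mir-24-1 (1641 to 3904) and mmu-mir-23a (1894 to 2547) overlapped, as did those of mmu-mir-23b (1036 to 1801) and mmu-mir-27a (656.3 to 1237). The order of neighbours in these 2 pairs therefore did not hold in every library. mmu-mir-27a was the lowest of the 6 in 7 libraries and mmu-mir-23b in 2.

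Between paralogues the sides differed by family. mmu-mir-27b exceeded mmu-mir-27a by 5.55 to 9.72 times, with cluster b ahead, whereas mmu-mir-23a exceeded mmu-mir-23b by 1.28 to 2.19 times and mmu-mir-24-2 exceeded mmu-mir-24-1 by 1.41 to 2.25 times, with cluster a ahead. Each of these orders held in 9 of 9 libraries. An even split of shared reads would bring these ratios nearer to 1.

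**Figure D2:**
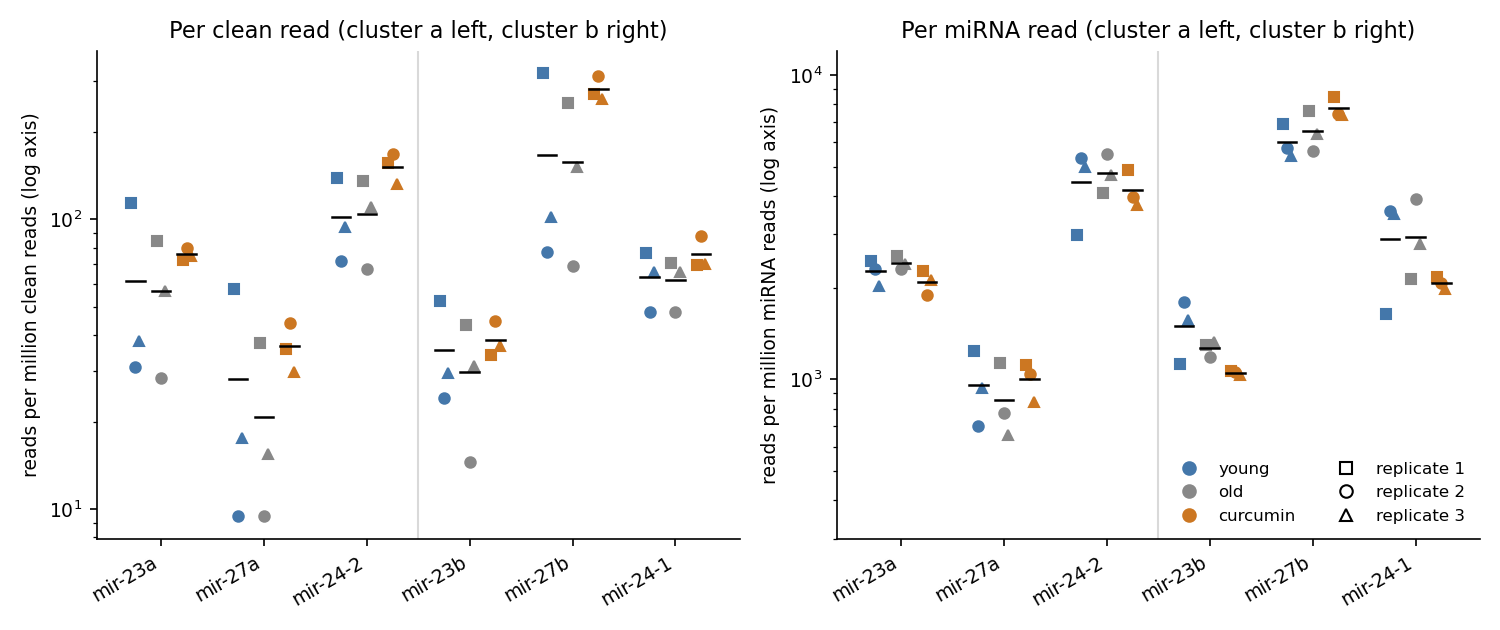
Reads of each precursor in each library per 1000000 clean reads (left) and per 1000000 miRNA reads (right), both on log axes; colour gives the group, the marker shape the replicate number, and the black line the group mean. mmu-mir-27b lies highest in every library, and the spread of young and old libraries is far wider per clean read than per miRNA read.

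Old mice were set against young mice to ask whether these miRNAs shift with age in the atrium, and no member passed the test. In clean RPM, mmu-mir-27b stood at 320.2, 77.2 and 102 in young replicates 1 to 3 and at 251.8, 68.9 and 151.1 in old. The groups overlapped over nearly their whole range, with the libraries numbered 1 highest in both. mmu-mir-23a stood at 114.3, 31.0 and 38.1 in young and 84.5, 28.4 and 56.7 in old, with the same order of libraries. In edgeR's quasi-likelihood test over all 520 features, log2 fold changes of the members ran from -0.29 (SE 0.58) for mmu-mir-27a to 0.09 (SE 0.28) for mmu-mir-24-2, each with a Benjamini-Hochberg adjusted p of 0.999. None of the 6 was called, beside 0 of 520 features (0%); 5 features had an unadjusted p under 0.05, and DESeq2 and limma-voom also called 0. The members' median log2 fold change was -0.00, beside -0.04 over all features tested and -0.15 over the 209 miRNA precursors tested.

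Summed over its 3 members, each cluster overlapped between old and young on both scales. Cluster a held 311.1, 112 and 149.9 clean RPM in young mice and 257.7, 105.5 and 182.9 in old (191 ± 106 and 182 ± 76.1, SD, n = 3 as in every group). Cluster b held 448.9, 149.2 and 197.3 in young and 365.7, 131.4 and 248.4 in old, again with overlapping groups. Their log2 differences, old minus young, were -0.02 and -0.05 (exact two-sided permutation test, p = 1 and 1; the smallest p that 3 libraries against 3 can give is 0.1). In miRNA RPM cluster a stood at 7658 ± 873 in young and 8027 ± 491 in old, and cluster b at 10405 ± 742 and 10737 ± 265. These log2 differences were 0.07 and 0.05 (exact permutation p = 0.7 and 0.6; 1 and 1 after Benjamini-Hochberg adjustment over the 12 cluster comparisons). None of the 6 members had non-overlapping groups between old and young, per clean read, beside 4.04% of the 520 features, or per miRNA read, beside 7.66% of 209 precursors.

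Curcumin-treated mice were set against old mice to ask whether treatment moved these miRNAs, and no member passed the test. Per clean read mmu-mir-27b had the only separate groups, at a share of members near that of all features. Its level in clean RPM was 251.8, 68.9 and 151.1 in old replicates 1 to 3 and 271.6, 313.5 and 259.9 in curcumin. Every curcumin library lay above every old library, though the lowest curcumin library was close to the highest old one. It was the only 1 of 6 members whose groups did not overlap per clean read, beside 12.7% of all 520 features and 30 of 209 miRNA precursors that lay higher; per miRNA read its groups overlapped. mmu-mir-27a stood at 37.5, 9.48 and 15.5 in old and at 35.6, 44.1 and 29.8 in curcumin, and its groups overlapped through old replicate 1.

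The fit across all features called none of the 6 members in curcumin against old (0% of 520 called; 21 features at an unadjusted p under 0.05, and 0 called by DESeq2 and by limma-voom). The log2 fold change was 0.65 for mmu-mir-27b (SE 0.47, adjusted p = 0.917) and 0.61 for mmu-mir-27a (SE 0.58, adjusted p = 0.917). With 1 library left out they ran from 0.32 to 1.15 and from 0.30 to 1.33. mmu-mir-24-2 gave 0.32, mmu-mir-23a 0.23, mmu-mir-23b 0.17 and mmu-mir-24-1 0.07, each with an adjusted p of at least 0.917. All 6 estimates were above 0 in this fit and 3 of 6 were when miRNA precursors were scaled among themselves. Their median of 0.28 lay beside 0.08 over all features and 0.25 over the 209 miRNA precursors, of which 161 were above 0.

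Without the 3 libraries numbered 1, a fit in which 14.1% of 519 features passed the test (34 higher and 39 lower in curcumin than in old), both miR-27 loci were called higher. mmu-mir-27b then gave a log2 fold change of 1.13 (SE 0.30, edgeR adjusted p = 0.0103) and mmu-mir-27a 1.29 (SE 0.35, adjusted p = 0.0137), each with both curcumin libraries above both old ones. Among all miRNA precursors of that fit 30 were called higher and 1 lower, and the members' median of 0.59 lay beside a median of 0.58 over all these precursors and -0.05 over all features. The other 4 members did not pass, at 0.62 for mmu-mir-23a, 0.57 for mmu-mir-23b, 0.49 for mmu-mir-24-2 and 0.20 for mmu-mir-24-1. With miRNA precursors scaled among themselves and the libraries numbered 1 left out, 10.7% of 206 precursors passed, among them mmu-mir-27b (0.60, SE 0.19, edgeR adjusted p = 0.038), while mmu-mir-27a stood at 0.72 (SE 0.26, adjusted p = 0.0632).

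The sum of cluster b was higher per clean read in curcumin than in old and nearly equal per miRNA read, and no cluster sum passed its test. In clean RPM, cluster b stood at 375.3, 445.5 and 366.5 in curcumin, all above the old libraries (365.7, 131.4 and 248.4), by 366.5 against 365.7 at the closest. The log2 difference was 0.79 (p = 0.1 by exact permutation, the lowest this design allows; adjusted p = 0.96), made up of 0.04, 1.76 and 0.56 for numbers 1 to 3. It ran from 0.39 to 1.13 with 1 library left out and was 1.16 without the libraries numbered 1. Cluster a gave 264.3, 292 and 236.7 in curcumin against 257.7, 105.5 and 182.9 in old, a log2 difference of 0.63 (exact permutation p = 0.2, adjusted p = 0.96) with overlapping groups; it ran from 0.28 to 0.92 with 1 library left out and was 0.92 without those numbered 1.

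Against the miRNA total, cluster b differed little between curcumin and old, though not against a total without muscle and endothelial miRNAs. Cluster b stood at 11709, 10552 and 10391 miRNA RPM in curcumin and at 11018, 10701 and 10491 in old, a log2 difference of 0.02 (exact permutation p = 0.9, adjusted p = 1). With the muscle and endothelial precursors taken out of the total, it was 0.18 against old and 0.28 against young (exact permutation p = 0.1 for each). On that total old minus young was 0.12 for cluster a (exact permutation p = 0.1) and 0.09 for cluster b (exact permutation p = 0.4). Cluster a stood at 8246, 6916 and 6711 in curcumin and 7763, 8593 and 7724 in old, a log2 difference of -0.14 (exact permutation p = 0.3, adjusted p = 0.96). The miRNA share of clean reads, 3.21% to 4.22% in curcumin and 1.23% to 3.32% in old libraries, moved with the values per clean read, and its part in them was not tested.

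**Figure D3:**
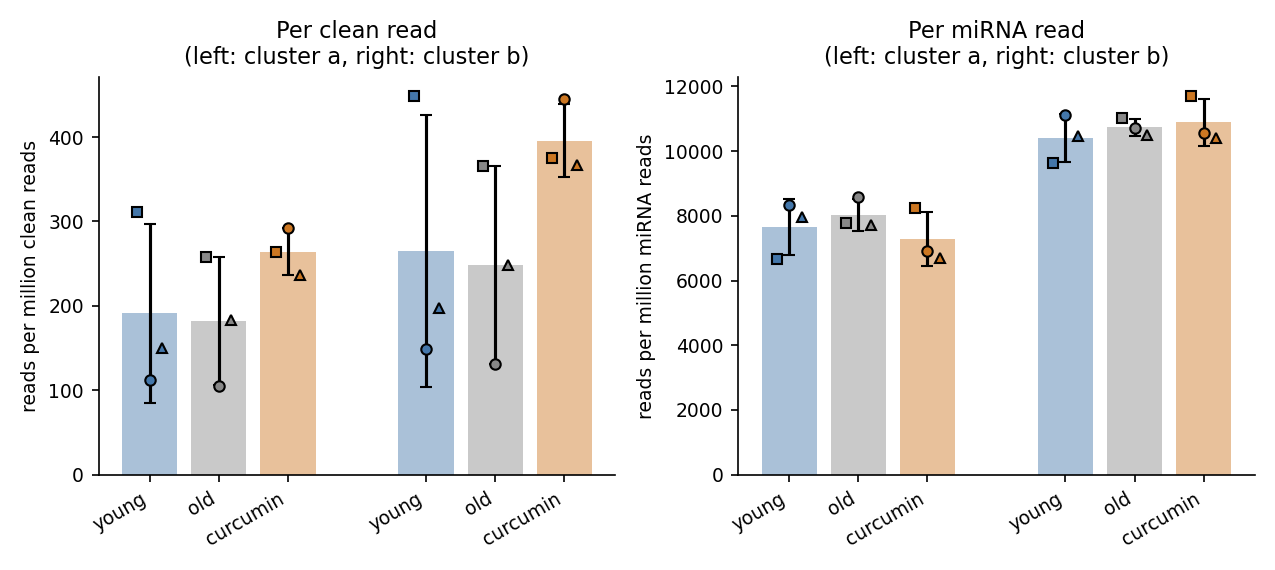
Summed reads of cluster a and of cluster b per 1000000 clean reads (left) and per 1000000 miRNA reads (right); bars are group means, error bars SD over 3 libraries, and points the libraries, shaped by replicate number. Per clean read the young and old libraries spread from 105.5 to 311.1 for cluster a and from 131.4 to 448.9 for cluster b, while per miRNA read all libraries of cluster b lie between 9631 and 11709.

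Against the miRNA total, both miR-23 loci were lower in curcumin than in old. mmu-mir-23b stood at 1065, 1054 and 1036 miRNA RPM in curcumin, at 1298, 1188 and 1321 in old and at 1120, 1801 and 1572 in young. All 3 curcumin libraries lay below all 6 others. mmu-mir-23a stood at 2261, 1894 and 2116 in curcumin, below the old libraries (2547, 2310 and 2394) but within the young ones (2453, 2305 and 2025). These 2 were the members with non-overlapping groups in curcumin against old on this scale, beside 19.1% of 209 precursors, 31 of them lower and 9 higher. The muscle precursor mmu-mir-1a-1, a large part of the total, stood at 174801 to 208898 in curcumin and 147212 to 174397 in old. mmu-mir-1a-2 was also higher without overlap, while mmu-mir-133a-1, mmu-mir-133a-2 and mmu-mir-208a overlapped. With miRNA precursors scaled among themselves, curcumin against old gave log2 fold changes of -0.015 for mmu-mir-23a and -0.079 for mmu-mir-23b (edgeR adjusted p = 0.983 and 0.900). Without the libraries numbered 1 that scaling gave 0.068 and 0.030, so the lower level was not seen there. The part of the total in the low miR-23 values was not tested.

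The remaining comparison, curcumin against young mice, had separate groups for mmu-mir-27b and mmu-mir-23b per miRNA read. mmu-mir-27b stood at 8473, 7426 and 7368 in curcumin and at 6870, 5751 and 5413 in young, with no overlap, and with the old libraries (7586, 5609 and 6382) between and across them. It was higher and mmu-mir-23b lower in curcumin than in young without overlap, beside 14.4% of 209 precursors with such separation. Per clean read none of the 6 members had separate groups, beside 9.42% of 520 features, and young replicate 1 held the highest value of mmu-mir-27b, 320.2 in clean RPM. The comparisons of curcumin with old and of curcumin with young share the curcumin libraries, so the 2 are not independent.

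No member was called between curcumin and young in the fit over all features (0% of 520; 19 at an unadjusted p under 0.05, 0 called by DESeq2 and by limma-voom). mmu-mir-27b gave a log2 fold change of 0.69 (SE 0.47, edgeR adjusted p = 0.942), mmu-mir-24-2 0.41 and mmu-mir-27a 0.32, while mmu-mir-23b gave -0.03. The members' median was 0.27, beside -0.01 over all features and 0.07 over miRNA precursors. Without the libraries numbered 1, where 12.9% of 519 features were called, mmu-mir-27b gave 1.31 (SE 0.30, edgeR adjusted p = 0.0042) and mmu-mir-27a 1.08 (SE 0.35, adjusted p = 0.0441). Among all miRNA precursors of that fit 33 were called higher and 2 lower. The members' median of 0.64 lay beside 0.55 over these precursors and -0.09 over all features. Scaled among miRNA precursors alone and without those libraries, 13.6% of 206 precursors were called, mmu-mir-27b among them at 0.77 (SE 0.19, edgeR adjusted p = 0.00623), and mmu-mir-27a, at 0.56, was not (adjusted p = 0.139). The same 2 fits of old against young called 0% of 519 features and 0% of 206 precursors.

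For whole clusters the curcumin libraries fell inside the young range, except that curcumin replicate 1 lay above it for cluster b per miRNA read. The log2 difference per clean read was 0.60 for cluster a and 0.74 for cluster b (exact permutation p = 0.4 and 0.4, adjusted p = 0.96 for both), with young replicate 1 above all 3 curcumin libraries. With 1 library left out these ran from 0.29 to 1.02 and from 0.41 to 1.2, and without those numbered 1 they were 1.02 and 1.24. Per miRNA read it was -0.07 for cluster a and 0.07 for cluster b (exact permutation p = 0.8 and 0.5, adjusted p = 1 and 1). A difference of the 2 clusters' own changes needs no total, and was read from the ratio of cluster a to cluster b.

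That ratio was lowest in curcumin libraries 2 and 3. Reads of cluster a per read of cluster b numbered 0.693, 0.751 and 0.760 in young, 0.705, 0.803 and 0.736 in old, and 0.704, 0.655 and 0.646 in curcumin. Curcumin lay below old without overlap, but by 0.704 against 0.705 at the closest, and it overlapped with young through young replicate 1. The log2 difference was -0.16 for curcumin minus old (exact permutation p = 0.1, adjusted p = 0.3 over 3 comparisons), -0.14 for curcumin minus young (p = 0.2, exact; adjusted p = 0.3) and 0.03 for old minus young (p = 0.9, exact). Without the libraries numbered 1 the difference of curcumin was -0.24 against old and -0.22 against young. Without the miR-24 loci, which share the longest stretch, the difference of curcumin was -0.26 against old and -0.28 against young, with an exact permutation p of 0.1 each.

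Within each cluster the shares of the 3 members varied between libraries. mmu-mir-27b took 71.3%, 51.8% and 51.7% of the reads of cluster b in young replicates 1 to 3, 68.9%, 52.4% and 60.8% in old, and 72.4%, 70.4% and 70.9% in curcumin. mmu-mir-24-1 took 17.0%, 32.0% and 33.3% in young, 19.4%, 36.5% and 26.6% in old, and 18.5%, 19.6% and 19.1% in curcumin. Where mmu-mir-27b was high, mmu-mir-24-1 was low, and the 3 curcumin libraries were closely alike in both. Shares of 1 cluster are parts of the same total, so a high share of mmu-mir-27b leaves less for the others. In cluster a mmu-mir-24-2 was the largest part in every library, from 44.7% in young replicate 1 to 64.1% in old replicate 2, and mmu-mir-27a the smallest, from 8.44% to 18.5%. The 95% Wilson intervals of these shares reached at most 2.25 percentage points to either side.

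**Figure D4:**
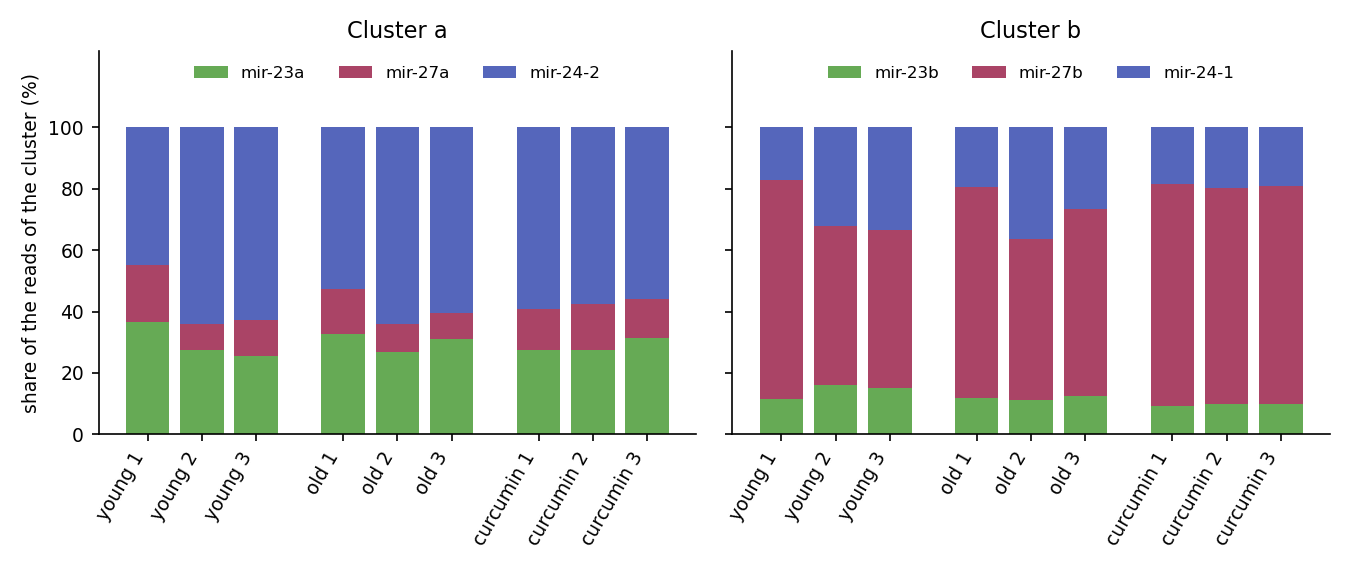
Share of each cluster's reads (%) taken by its miR-23, miR-27 and miR-24 precursor in each of the 9 libraries. In cluster b the share of mmu-mir-27b ranges from 51.7% to 72.4% and is at least 68.9% in all libraries numbered 1 and all 3 curcumin libraries.

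Across libraries, the 2 loci of miR-24 varied together, while mmu-mir-27b varied against its neighbours in cluster b. Pearson's r of log2 miRNA RPM over the 9 libraries was 0.90 between mmu-mir-24-2 and mmu-mir-24-1 and 0.60 between mmu-mir-27a and mmu-mir-27b, pairs whose loci may share reads, but 0.15 between mmu-mir-23a and mmu-mir-23b. Within cluster b, mmu-mir-27b had an r of -0.82 with mmu-mir-24-1 and of -0.71 with mmu-mir-23b. Within cluster a, mmu-mir-27a had an r of -0.62 with mmu-mir-24-2 and of 0.01 with mmu-mir-23a. These values describe the libraries only. Both clusters together were 1.63% to 1.995% of the miRNA total that the members share, and what sets these relations was not tested.

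A ratio between families uses reads of both loci and depends on no total. The ratio of miR-27 to miR-24 reads was 1.75, 0.726 and 0.748 in young, 1.40, 0.678 and 0.943 in old, and 1.36, 1.40 and 1.43 in curcumin. Groups overlapped, and the log2 difference of curcumin was 0.54 against old and 0.51 against young (exact permutation p = 0.3 and 0.4, adjusted p = 0.6 for both), while old minus young was -0.03 (exact p = 1). With 1 library left out the difference ran from 0.28 to 0.81 against old and from 0.29 to 0.92 against young, and without those numbered 1 it was 0.82 and 0.94. The ratio was higher in libraries with a higher miRNA share. On log2 scales Pearson's r was 0.970 (exact permutation p = 2.2e-05, adjusted p = 8.82e-05 over 4 such relations, n = 9) and Spearman's rho 0.950 (exact permutation p = 0.000353, adjusted p = 0.00141). This permutation takes the 9 libraries as exchangeable, although they come from 3 groups and share replicate numbers. The ratio of miR-27 to miR-24 was chosen after its values were seen, and the adjustment over 4 relations does not cover that choice. Pearson's r was 0.964 without young replicate 2 and old replicate 2, the libraries farthest from the median share (exact permutation p = 0.00159, adjusted p = 0.00635). Over the 6 libraries not numbered 1 it was 0.965 (exact permutation p = 0.00278, adjusted p = 0.0111), and rho was 0.943 (exact permutation p = 0.0167, adjusted p = 0.0667). The 3 libraries numbered 1 were too few for a value of their own.

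The ratio of miR-27 to miR-23 reads, chosen after its values were seen, was a measure on which the curcumin libraries stood apart from both other groups. It was 2.27, 1.57 and 1.77 in young, 2.27, 1.82 and 1.89 in old, and 2.88, 2.87 and 2.61 in curcumin. All 3 curcumin libraries lay above all 6 others, and each lay above the library of the same number in both groups. The log2 difference was 0.49 against old and 0.59 against young (exact two-sided permutation p = 0.1 for each, the lowest possible here, adjusted p = 0.15 over 3 comparisons). Without the libraries numbered 1 these were 0.56 and 0.72. Old minus young was 0.11 (exact permutation p = 0.6).

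Taken per cluster, the groups were separate in cluster b and overlapped in cluster a. mmu-mir-27b to mmu-mir-23b was 7.95, 7.05 and 7.12 in curcumin, 5.84, 4.72 and 4.83 in old, and 6.13, 3.19 and 3.44 in young. mmu-mir-27a to mmu-mir-23a was 0.491, 0.551 and 0.399 in curcumin, 0.444, 0.334 and 0.274 in old, and 0.504, 0.305 and 0.462 in young. Whether the clusters differed in this ratio was not tested. The ratio of miR-27 to miR-23 also rose with the miRNA share (r = 0.827, exact permutation p = 0.00829, adjusted p = 0.0111, n = 9). Its rho was 0.733 (exact permutation p = 0.0311, adjusted p = 0.0311). Without the 2 farthest libraries r was 0.732 and did not pass (exact permutation p = 0.0613), in a test with fewer libraries (n = 7). Over the 6 libraries not numbered 1, r was 0.918 (exact permutation p = 0.0111, adjusted p = 0.0148). The part of the miRNA share in the difference between groups was not tested.

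Both other relations with the miRNA share had an r of smaller size than the ratio of miR-27 to miR-24. The ratio of cluster a to cluster b fell as the share rose (r = -0.876, exact permutation p = 0.00201, adjusted p = 0.00403; rho = -0.900, exact permutation p = 0.00203, adjusted p = 0.00406; n = 9), with r = -0.934 over the 6 not numbered 1 (exact permutation p = 0.0111, adjusted p = 0.0148). Without the 2 farthest libraries r was -0.801 and no longer passed after adjustment (exact permutation p = 0.0296, adjusted p = 0.0591). The ratio of miR-23 to miR-24, 0.372 to 0.772 over the libraries, gave r = 0.768 (exact permutation p = 0.0129, adjusted p = 0.0129; rho = 0.833, exact permutation p = 0.00827, adjusted p = 0.011; n = 9). Without the 2 farthest libraries r was 0.698 and did not pass (exact permutation p = 0.0817), again with fewer libraries. What sets the miRNA share of a library was not tested.

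**Figure D5:**
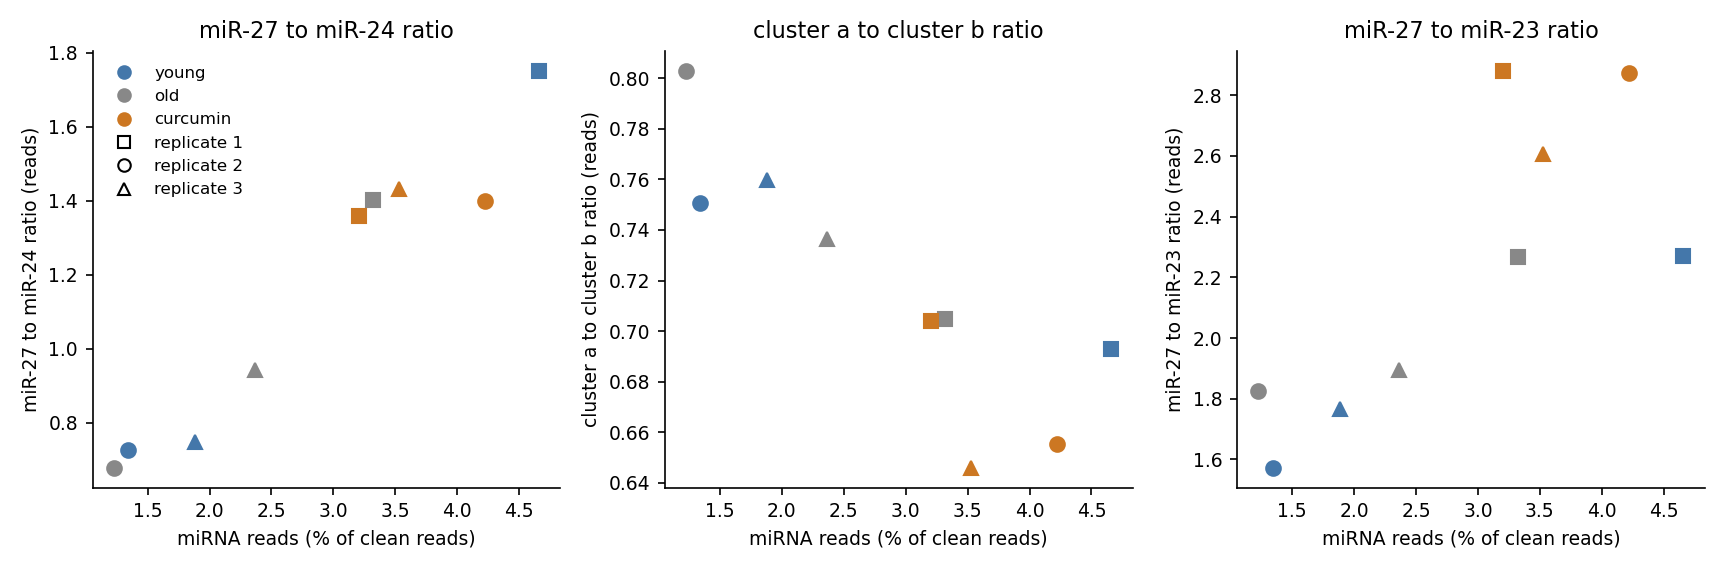
Ratios of summed reads against the miRNA share of clean reads (%) for the 9 libraries: miR-27 to miR-24 (left), cluster a to cluster b (middle) and miR-27 to miR-23 (right). The left ratio climbs from 0.678 at a share of 1.23% to 1.75 at 4.66%, and on the right the curcumin libraries lie between 2.61 and 2.88, above the other 6 (at most 2.27).

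Markers of other cell types moved with some of these contrasts. The 4 red blood cell precursors summed to 2835 to 6353 miRNA RPM in young, 1222 to 3461 in old and 766.1 to 1422 in curcumin. Only this sum lay below young without overlap, as each of the 4 precursors overlapped between curcumin and young. In clean RPM the sum overlapped too, at 24.6 to 57.6 in curcumin and 38.1 to 296.1 in young. The 2 smooth muscle precursors summed to 17538 to 18343 in curcumin, above young (14454 to 15810) and old (14146 to 16647), but its members went opposite ways. mmu-mir-143 stood at 14596 to 15374 in curcumin, above young (9942 to 11094) and old (9800 to 12746), and mmu-mir-145a at 2846 to 2999.5, below young (3961 to 4717) and old (3901 to 4346). Endothelial markers stood at 214741 to 281663 in curcumin, overlapping with old (247585 to 268485) and with young (220127 to 238274). All old libraries lay above all young ones in these, beside 7.66% of 209 precursors with separate groups in that comparison. In clean RPM old (3039 to 8519) and young (3200 to 10994.5) overlapped. The 4 leukocyte markers with reads overlapped between groups (2643 to 3811 in curcumin, 2391 to 3461 in old and 2547 to 7908 in young). The 7 epithelial precursors summed to 771.5 to 1092 in curcumin, overlapping with young (637.5 to 847.7). Among them mmu-mir-203 stood at 709.1 to 981.3, above young (566.1 to 670.7), and mmu-mir-200a overlapped. The muscle precursor mmu-mir-208a stood at 475.7 to 616.8 in curcumin, below young (736 to 1189). mmu-mir-1a-1, mmu-mir-1a-2, mmu-mir-133a-1 and mmu-mir-133a-2 overlapped with young. The part of these cells in the differences of mmu-mir-27b and mmu-mir-23b was not tested.

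Other miRNAs linked with the heart and with vessels were likewise not called. Of 20 precursors linked to cardiac growth, 15 were tested, 0 passed in any comparison, and their median log2 fold change was -0.13 in old against young, 0.42 in curcumin against old (14 of 15 above 0) and 0.41 in curcumin against young. Of 23 linked to vessels, 19 were tested, 0 passed, and the medians were -0.19, 0.40 (18 of 19 above 0) and 0.09. The members' medians were -0.00, 0.28 and 0.27, and those of all features -0.04, 0.08 and -0.01. Over the 209 miRNA precursors tested they were -0.15, 0.25 (161 above 0) and 0.07.

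By likeness over the 9 libraries, measured as Pearson's r of log2 (miRNA RPM + 1) with the sum of a cluster among 203 tested precursors, mmu-mir-532 came closest to cluster a (r = 0.91), ahead of mmu-mir-3084-2 and mmu-mir-3084-1 (0.90 each, with equal values). For cluster b the 3 closest were lower, as mmu-mir-31 reached 0.63, mmu-mir-5121 0.62 and mmu-mir-690 0.62.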

How the data were processed

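The authors deposited 1 summary table per library, whose values are expected counts: reads per annotation, with fractions where a read matched several. Per the submitters' processing notes, cutadapt 2.5 and build mm10 were used; the read annotation tool is not given in the sources used here, nor is any use of molecular identifiers. Genome-matched and unmatched reads were added up per precursor (members had none of the latter), tRNA ends were taken out of the totals that hold them, and the deposited expected counts were rounded. edgeR 4.0.16 in R 4.3.3 (filterByExpr, TMM scaling, robust quasi-likelihood, group as the only term) fitted all 9 libraries and 520 features, and a feature was called at a Benjamini-Hochberg adjusted p under 0.05. Cluster sums and ratios were tested by exact two-sided permutation (Python 3.11.15). Both were tested on simulated data. Deviations from group means were compared between libraries of the same number. Their r was 0.81, 0.66 and 0.31 in old against young, 0.34, 0.19 and 0.35 in curcumin against young, and 0.28, -0.10 and 0.41 in curcumin against old. Unlike numbers could be as high, as for old replicate 2 with young replicate 3 (0.60) and old replicate 3 with young replicate 2 (0.42). Old replicate 1 went against young replicates 2 and 3 (-0.75 and -0.65). These values do not show that numbers pair the libraries. Named precursors were the 6 members, the 3 most like each cluster sum, and listed loci on which a result turned. The members, lists and tests were chosen with earlier results of these data known, and the 2 family ratios after their values were seen. Alternatives were other scalings (RLE, clean-read totals, miRNA precursors alone), DESeq2 1.42.0, limma-voom (limma 3.58.1), other filters, summed paralogues, genome-matched reads, only the groups compared, the replicate block, medians, and leaving out libraries.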

Additional observations from a re-analysis of the deposited data

How the results depend on the processing

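No member was called in any of the 3 comparisons under any alternative with all 9 libraries or with 1 library left out. The fit with the replicate block called 0 members, and sign flips within numbers cannot give a p under 0.25. Leaving out the 3 libraries numbered 1 gave 2 called members in curcumin against old and 2 in curcumin against young, and 1 in each with miRNA precursors alone. Clean-read totals moved the median of all features from 0.08 to 0.31 in curcumin against old and from -0.01 to 0.19 in curcumin against young. Depth limits mmu-mir-27a most, with 148 to 1136 reads in a library. The cause of the reversals below was not tested.

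In old against young, medians of groups turned the log2 difference of cluster a to 0.29 per clean read and -0.036 per miRNA read, of cluster b per clean read to 0.33, of the ratio of cluster a to cluster b to -0.028 and of miR-27 to miR-24 to 0.33. Leaving out the libraries numbered 1 turned cluster a to 0.10 per clean read and -0.000 per miRNA read, cluster b to 0.074 and -0.026, and miR-27 to miR-24 to 0.12. The ratio of the clusters without the miR-24 loci was -0.023, miR-27 to miR-24 in cluster b only 0.052, and miR-27 to miR-23 in cluster a only -0.27. Leaving out 1 library gave ranges of -0.34 to 0.40 for cluster a and -0.39 to 0.41 for cluster b per clean read, -0.023 to 0.14 and -0.007 to 0.096 per miRNA read, -0.027 to 0.067 for the ratio of the clusters, -0.30 to 0.39 for miR-27 to miR-24 and -0.011 to 0.25 for miR-27 to miR-23.

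In curcumin against old, cluster b per miRNA read was -0.020 by medians, -0.017 without the libraries numbered 1, and -0.036 to 0.050 with 1 library left out; cluster a was 0.023 when muscle and endothelial precursors were taken out of the miRNA total. In curcumin against young that total gave 0.14 for cluster a, and cluster b per miRNA read was -0.043 without the libraries numbered 1.

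Of the members in old against young, mmu-mir-23a was -0.11 with clean-read totals, -0.001 with DESeq2, -0.021 with limma-voom, -0.003 without a filter and -0.012 with genome-matched reads; mmu-mir-27b was -0.083 with clean-read totals and -0.015 with limma-voom; mmu-mir-24-1 was 0.002 with limma-voom and 0.058 among miRNA precursors alone. In curcumin against old, miRNA precursors alone gave -0.015 for mmu-mir-23a, -0.079 for mmu-mir-23b and -0.27 for mmu-mir-24-1, and, without the libraries numbered 1, -0.40 for mmu-mir-24-1 and -0.088 for mmu-mir-24-2. In curcumin against young, mmu-mir-24-1 was -0.21 and -0.44 in these 2 fits and mmu-mir-24-2 was -0.056 in the second; mmu-mir-23b was 0.12 with clean-read totals, 0.036 with at least 10 reads in every library, 0.015 with the replicate block, 0.22 without the libraries numbered 1 and 0.045 with only the groups compared.

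With 1 library left out, old against young ran from -0.32 to 0.50 for mmu-mir-23a, -0.94 to 0.42 for mmu-mir-27a, -0.073 to 0.28 for mmu-mir-24-2, -0.49 to 0.097 for mmu-mir-23b, -0.39 to 0.60 for mmu-mir-27b and -0.068 to 0.10 for mmu-mir-24-1. Curcumin against old ran from -0.057 to 0.63 for mmu-mir-23a, -0.12 to 0.54 for mmu-mir-23b and -0.023 to 0.20 for mmu-mir-24-1, and curcumin against young from -0.12 to 0.086 for mmu-mir-23b and -0.018 to 0.23 for mmu-mir-24-1. The ratio of miR-27 to miR-23 kept its direction throughout, at 0.43 to 0.58 in curcumin against old and 0.48 to 0.74 in curcumin against young.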
